A study of Mus musculus with 8 samples.

Results

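The genes described here are grouped as amino acid transporter genes of the cell surface: Slc1a4, Slc1a5, Slc7a5, Slc3a2, Slc7a11, Slc7a1, Slc38a2, Slc38a5 and Slc43a3. They were taken by symbol, as every probe that the array's annotation assigns to 1 of these 9 names, which gave 13 of the 24613 probes on the array. Each gene had 1 probe detected on at least 1 array (detection p under 0.01), so all 9 were among the 7456 genes tested. The other 4 probes, an additional probe each for Slc1a5, Slc7a1, Slc38a2 and Slc43a3, were not detected on any array.

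Cells take up amino acids through families of carriers that differ in what they move. Slc1a4 (ASCT1) and Slc1a5 (ASCT2) are sodium-dependent exchangers of small neutral amino acids, and Slc1a5 also carries glutamine. Slc7a5 (LAT1), bound to the heavy chain Slc3a2 (CD98), brings in leucine and other large neutral amino acids. Slc7a11 (xCT), bound to the same heavy chain, imports cystine in exchange for glutamate, Slc7a1 (CAT1) imports arginine and lysine, and Slc38a2 (SNAT2) and Slc38a5 (SNAT5) are sodium-coupled carriers of glutamine and other neutral amino acids. Slc43a3 belongs to the family of the leucine transporters LAT3 and LAT4 by sequence, but the human protein is known to carry purine nucleobases. When amino acids are short or protein synthesis is stressed, the transcription factor Atf4 switches on many of these genes. Activated lymphocytes are known to raise Slc7a5, Slc3a2 and Slc1a5.

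RNA was measured on 8 one-colour Illumina mouse arrays from C57BL/6 splenocytes, the mixed cells of the spleen, pooled from 4 mice aged 5 to 6 weeks for each genotype. The 3 genotypes were p53-null, Δ122p53, a shortened p53 that per the series title is like the isoform Δ133p53α, and wild type (WT). Cells were held in DMEM medium with 20% serum and 2 mM added glutamine and were given either 4 Gy of gamma irradiation or 5 hours of amsacrine at 1 µg per mL. Amsacrine breaks DNA by trapping topoisomerase II. There was 1 array for each genotype after amsacrine, 1 for irradiated p53-null cells, 1 control each for WT and Δ122p53, and 2 p53-null controls. The labels give a carrier control of 30% ethanol for amsacrine and untreated cells for irradiation, but call all control arrays only control. Which kind of control each of the p53-null pair was is therefore not given, and neither is the time from irradiation to harvest. Nothing says whether that pair came from separate cultures, so the p-values take in no more than the spread among these arrays. That spread may be technical. If the pair holds 1 control of each kind, the spread also takes in any effect of the carrier. The p53-null control mean would then mix both kinds.

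Median probe signal per array was 69.7 to 81.5, and 7710 to 8633 probes were detected per array. On each array 10 to 12 of 12 measured T cell markers and 7 to 9 of 9 measured B cell markers were detected. The Δ122p53 arrays differed in the markers detected. All 14 measured red cell (erythroid) markers were detected on both, against 6 to 9 on the other arrays. Ermap, Gata1, Hemgn, Rhag and Trim10 entered that list through the Δ122p53 arrays alone, and the WT control detected all the others. Of 7 macrophage markers 3 and 4 were detected on the Δ122p53 arrays, against 6 or 7, and of 5 platelet markers 0, against 2 to 5. The platelet markers, C1qa, C1qc and Mrc1 entered through the WT and p53-null arrays alone. These counts thus partly follow from the detection filter. Cell type markers also moved with treatment. The summed signal of the B cell markers was 45708 in the WT control and 15367 after amsacrine, 45349 and 38158 in the p53-null controls, 20287 after amsacrine and 34334 after irradiation, and 33744 and 13383 in Δ122p53 control and amsacrine. That of the macrophage markers was 8937 and 2432 in WT, 9743 and 7935 in the p53-null controls, 3323 and 2442 after amsacrine and irradiation, and 1012 and 1140 in Δ122p53. T cell markers summed to 23272 to 38127 in WT and p53-null arrays and to 15373 and 9867 in Δ122p53 control and amsacrine, and NK cell markers to 2875 to 6642 and to 1671 and 1235. The part of these shifts in the results below was not tested. Values below are log2 signals after background correction and quantile normalization, and a difference of 1 is a 2-fold difference. Differences carry the standard error (SE) of a limma model in which the p53-null control pair supplied the spread for every group. A lone array was thus assumed to vary like that pair. Adjusted p-values are 2-sided limma p-values adjusted by Benjamini-Hochberg over all 7456 genes, with a threshold of 0.05. Where a gene was detected on 1 side only, its fold is a lower bound and is given with the words at least. In whole splenocytes, fewer cells of a type and less RNA per cell cannot be told apart.

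Short promoter stretches were read for the element that Atf4 binds. RefSeq promoter sequences (GRCm38.p6) were held for 6 of the 9 genes, as 7 promoters. Each ran from 250 bases before the start of transcription to 50 after it. That whole window was searched on both strands for the amino acid response element TGATGNAA, the antioxidant element TGACNNNGC bound by Nrf2, and the E-box CACGTG bound by Myc and related factors. Below are 100 bases before the start of transcription and the 4 that follow, 5′ to 3′ on the gene's strand, with matches in capitals. Slc7a11 (chr3:50443610-50443713, minus strand) and Slc1a4 (chr11:20332710-20332813, minus strand) are shown because they hold the amino acid element. Slc38a2 (chr15:96699725-96699828, minus strand) and Slc38a5 (chrX:8271281-8271384, plus strand), close relatives whose values differed in direction after amsacrine in WT and p53-null cells, are shown for contrast.
Slc7a11: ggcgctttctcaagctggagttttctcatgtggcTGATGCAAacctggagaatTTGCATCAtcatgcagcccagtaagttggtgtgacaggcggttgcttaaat
Slc1a4: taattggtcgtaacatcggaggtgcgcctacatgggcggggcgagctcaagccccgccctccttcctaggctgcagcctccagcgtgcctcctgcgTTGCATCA
Slc38a2: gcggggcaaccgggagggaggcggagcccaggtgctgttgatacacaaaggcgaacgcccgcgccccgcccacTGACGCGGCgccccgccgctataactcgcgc
Slc38a5: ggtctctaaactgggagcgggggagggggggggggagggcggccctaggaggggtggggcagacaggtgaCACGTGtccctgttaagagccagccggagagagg

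Slc7a11 held the amino acid element as a pair facing each other, with first bases at positions -66 and -47 from the start of transcription. Slc1a4 held 1 copy on the opposite strand, at position -4, across the start. Of all 32851 promoters, searched over the same whole window and not only the stretch shown, 3.97% held that element, 12.4% the antioxidant element and 7.15% the E-box. Slc38a2 had the antioxidant letters, as did 1 of the 2 Slc7a1 promoters, and Slc38a5 had an E-box. Slc3a2 had none of the 3 in the whole window searched. A match describes the letters only, and elements outside these windows were not searched.

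Slc1a4, the exchanger of alanine, serine and cysteine, gave the clearest response in the set. Its signal was 4.83 on the WT control and 8.07 on the WT amsacrine array. On the p53-null arrays it was 4.82 and 4.57 in the controls, 8.72 after amsacrine and 7.93 after irradiation, and on the Δ122p53 arrays it was 8.66 in the control and 9.68 after amsacrine. The WT and p53-null controls were not above background, while all treated arrays and the untreated Δ122p53 array were. In p53-null cells it rose at least 7.51-fold after amsacrine (log2 difference 4.03 ± 0.34, adjusted p = 0.034). In WT cells it was at least 4.80-fold higher (3.24 ± 0.39, adjusted p = 0.0895) and after irradiation of p53-null cells at least 4.33-fold higher (3.23 ± 0.34, adjusted p = 0.13). In Δ122p53 cells, where the control already had a signal, the difference was 1.02 ± 0.39 (adjusted p = 0.707). The p53-null call depended on processing: the difference was 1.70 to 4.15 over alternatives, with adjusted p from 0.0086 to 0.204.

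**Figure D1:**
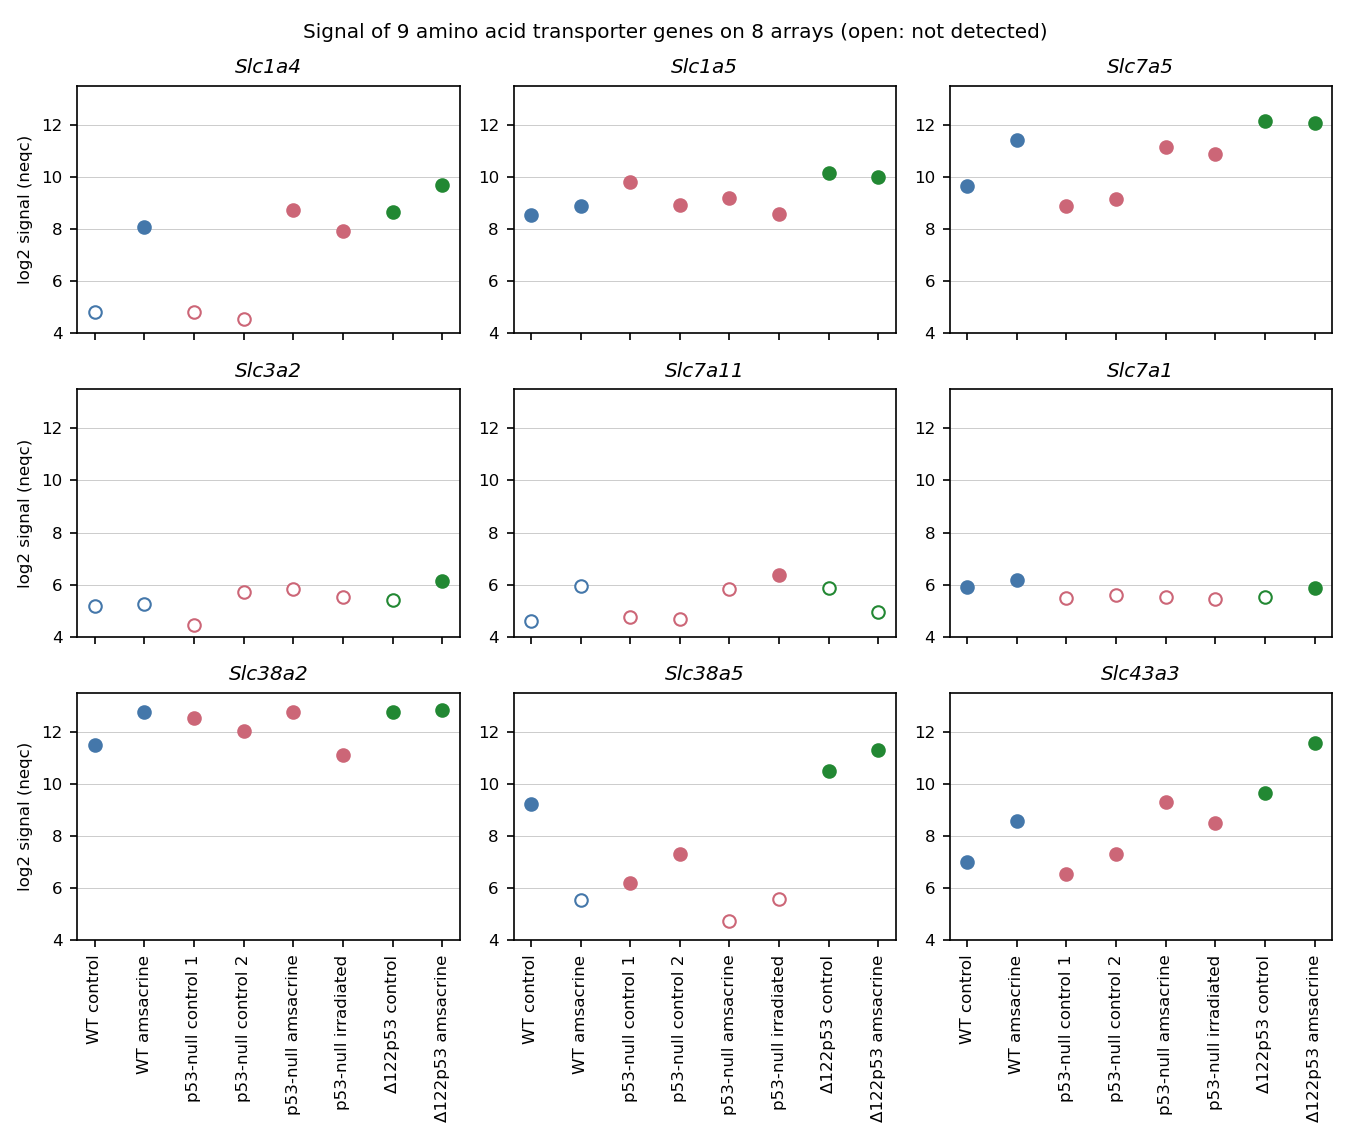
Log2 signal of the 9 transporter genes (1 panel each, detected probe) on the 8 arrays, coloured by genotype; filled points were detected and open points were not. Slc1a4 is open on the WT control and both p53-null controls and filled on the other 5 arrays, while Slc38a5 is highest on the Δ122p53 arrays at 10.49 and 11.29.

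Slc7a5, the light chain of the leucine transporter, was detected on all 8 arrays and followed the same order within WT and p53-null cells. It stood at 9.65 on the WT control and 11.43 after amsacrine. In p53-null cells it was 8.90 and 9.17 in the controls, 11.17 after amsacrine and 10.87 after irradiation. The Δ122p53 arrays were the highest, at 12.16 untreated and 12.09 after amsacrine. The treated WT and p53-null arrays did not overlap with their controls, whereas the Δ122p53 pair differed by less than the p53-null controls did. The differences were 1.78 ± 0.39 in WT (adjusted p = 0.112), 2.13 ± 0.34 in p53-null (adjusted p = 0.0872), -0.07 ± 0.39 in Δ122p53 (adjusted p = 1) and 1.84 ± 0.34 after irradiation (adjusted p = 0.209). Its partner Slc3a2 was detected on the Δ122p53 amsacrine array alone (6.15), with 4.46 to 5.81 on the others. On that probe no response of the heavy chain could be measured in WT or p53-null cells.

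Slc43a3 was higher after treatment in each genotype. The WT signal was 7.01 in the control and 8.57 after amsacrine. In p53-null cells it was 6.52 and 7.30 in the controls, 9.28 after amsacrine and 8.50 after irradiation, and in Δ122p53 cells it was 9.65 and then 11.58. Every treated array lay above the controls of its own genotype. The differences were 1.56 ± 0.49 in WT, 2.37 ± 0.43 in p53-null, 1.94 ± 0.49 in Δ122p53 and 1.59 ± 0.43 after irradiation, with adjusted p of 0.185, 0.0997, 0.512 and 0.233. Among the 9 genes it had the largest Δ122p53 response.

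Slc38a5 went the other way in WT and p53-null cells, but not in Δ122p53 cells. Its signal was 9.21 on the WT control and 5.55, not above background, on the WT amsacrine array. In p53-null cells it was 6.17 and 7.31 in the controls, 4.75 after amsacrine and 5.59 after irradiation, neither of the last above background. In Δ122p53 cells it was 10.49 in the control and 11.29 after amsacrine. It was thus at least 9.0-fold lower in treated WT cells (-3.67 ± 0.61, adjusted p = 0.0895), at least 1.74-fold lower in amsacrine-treated p53-null cells (-2.0 ± 0.52, adjusted p = 0.158) and at least 1.91-fold lower in irradiated ones (-1.16 ± 0.52, adjusted p = 0.392). The Δ122p53 difference was 0.81 ± 0.61 (adjusted p = 0.995). The p53-null controls themselves differed by 1.14 for this gene. Both p53-null bounds are against their mean and do not hold against control 1 alone. Against control 1 the differences were -1.42 after amsacrine and -0.58 after irradiation, and against control 2 they were -2.57 and -1.73. So the group does not split into genes that are higher and 1 that is lower in all genotypes: on the Δ122p53 arrays Slc38a5 was on the same side as Slc1a4 and Slc43a3.

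**Figure D2:**
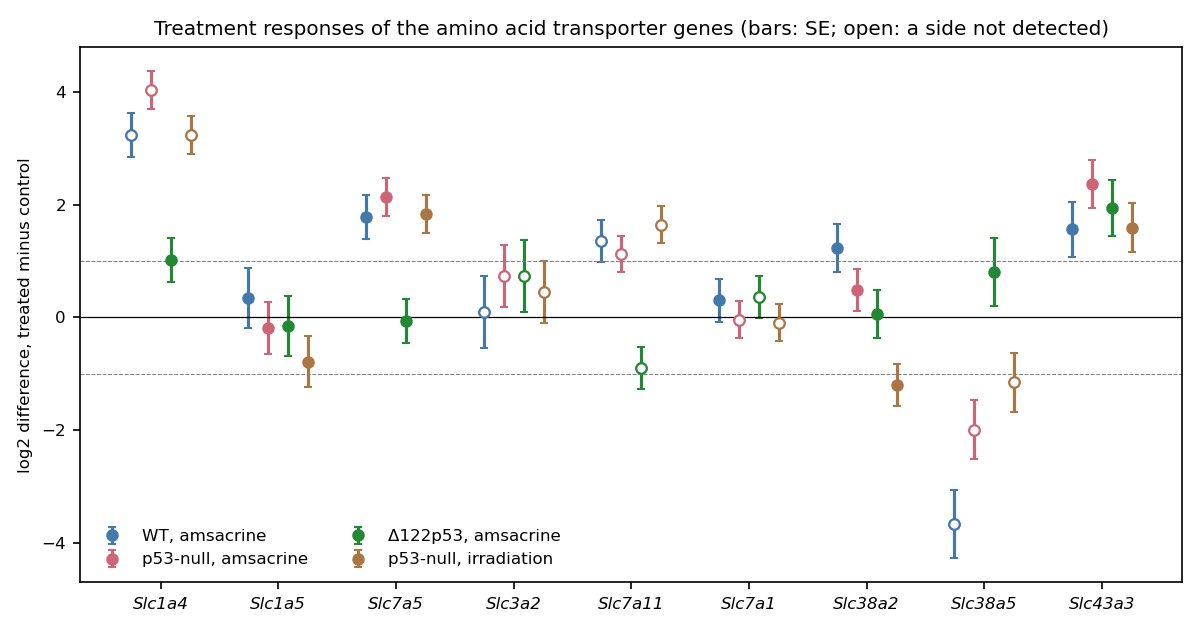
Log2 difference of treated minus control (points) with SE (bars) for the 9 genes in 4 responses; dashed lines mark 2-fold, and open points have a side not detected on any array. Slc1a4, Slc7a5 and Slc43a3 lie above the upper line for WT and p53-null cells, and Slc38a5 lies at -3.67 in WT and at 0.81 in Δ122p53 cells.

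Its relative Slc38a2, detected on all 8 arrays, was higher than its controls after amsacrine and lower after irradiation in p53-null cells, though no difference passed. The WT signal was 11.51 in the control and 12.74 after amsacrine (1.23 ± 0.43, adjusted p = 0.206). In p53-null cells it was 12.54 and 12.04 in the controls, 12.77 after amsacrine and 11.09 after irradiation, the lowest of the 8 arrays. The differences were 0.49 ± 0.37 for amsacrine (adjusted p = 0.551) and -1.20 ± 0.37 for irradiation (adjusted p = 0.275). Irradiation minus amsacrine was -1.68 ± 0.43, with an unadjusted limma p of 0.00829 and an adjusted p of 0.44; in that comparison 0 members passed in limma (0% of genes) and 1 of the 9, Slc38a2, had an unadjusted p under 0.05, near the share over all genes of 10.6%. The Δ122p53 arrays stood at 12.76 and 12.82 (0.06 ± 0.43, adjusted p = 1). It was the only one of the 9 with opposite signs for amsacrine and irradiation in p53-null cells against both controls.

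Slc7a11, the cystine importer whose promoter holds the paired element, was detected on the irradiated p53-null array alone. Its signal there was 6.36, against 4.77 and 4.66 in the controls, which is at least 1.46-fold higher (1.65 ± 0.33, adjusted p = 0.21). After amsacrine the values were 5.96 in WT (control 4.61), 5.84 in p53-null and 4.95 in Δ122p53 (control 5.85), none above background. No fold is given for those. Slc1a5, the glutamine exchanger, was detected on all arrays at 8.56 to 10.2, with the Δ122p53 pair highest. Its responses were 0.35 ± 0.53 in WT, -0.19 ± 0.46 in p53-null, -0.15 ± 0.53 in Δ122p53 and -0.78 ± 0.46 after irradiation, while the p53-null controls differed by 0.91. Slc7a1, the arginine importer, was detected on 3 arrays (5.89 on the WT control, 6.19 after amsacrine, 5.88 on the Δ122p53 amsacrine array), near the lowest detected signal per array of 5.72 to 6.04.

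Set against all genes, the treatment counts read as follows. In WT cells 5 of the 9 were at least 2-fold higher after amsacrine, where 9.7% of all genes were, and 1 was at least 2-fold lower, where 12.1% were. Of those 5, Slc7a11 was not above background on either array, which leaves 4. By limma, 0 members passed, where 0% of genes did, and 6 had an unadjusted p under 0.05 (19.7% of genes). In p53-null cells 4 were at least 2-fold higher (6.08% of all genes), 3 of them detected, and 1 was lower (8.41%). There 1 member passed (0.134% of genes) and 5 had an unadjusted p under 0.05 (17.2% of genes). Slc7a11, not above background on the arrays compared, is among the 6 and the 5. In Δ122p53 cells 2 were at least 2-fold higher (3.38%) and 0 lower (3.93%). By limma 0 passed (0%) and 2 had an unadjusted p under 0.05 (6.89% of genes). After irradiation 4 were at least 2-fold higher (5.49%) and 2 lower (5.46%). Again 0 passed in limma (0%), with 5 at an unadjusted p under 0.05 (13.9% of genes). The median difference of the 9 was 1.23 in WT, 0.73 in p53-null, 0.36 in Δ122p53 and 0.45 for irradiation, against medians over all genes of 0.05, 0.02, 0.00399 and 0.04. The p53-null responses share their controls, and the members were chosen with results of these arrays known.

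A model of genotype and amsacrine without the irradiated array gave the amsacrine effect shared by the genotypes. Slc43a3 rose by 2.00 ± 0.27 (adjusted p = 0.0225, higher in all 3 genotypes) and Slc1a4 by 2.89 ± 0.52 (adjusted p = 0.0478), so 2 of the 9 passed where 2.11% of genes did. The size for Slc1a4 is not exact, since it was not above background on the WT and p53-null controls. Slc7a5 was at 1.37 ± 0.41 (adjusted p = 0.111) and Slc38a5 at -1.66 ± 0.73 (adjusted p = 0.217). Without the Δ122p53 arrays 5 of the 9 had an adjusted p under 0.05, where 17% of genes did. Of these, Slc7a5 and Slc43a3 were detected on every array in that fit and rose by 1.98 (adjusted p = 0.00666) and 2.02 (adjusted p = 0.0135). Slc1a4 was not above background on the controls and Slc38a5 not on either amsacrine array, so they have a direction there, higher and lower (adjusted p = 0.00353 and 0.0178), and no exact size. The fifth, Slc7a11, was not above background on any array in that fit, so its call has no measured level behind it. With either p53-null control left out, neither Slc1a4 (adjusted p = 0.124 and 0.112) nor Slc43a3 (0.068 and 0.0703) passed in limma.

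The responses were then compared between genotypes. For Slc7a5, detected on every array, the Δ122p53 response minus the WT response was -1.86 ± 0.55, and minus the p53-null response -2.20 ± 0.52. For Slc38a5 the same differences were 4.48 ± 0.86 and 2.80 ± 0.80, and for Slc1a4 -2.22 ± 0.55 and -3.01 ± 0.51, sizes that are not exact because each was below background on some of the arrays. These 3 genes, with Slc7a11, which was not above background on any array compared, had an unadjusted limma p under 0.05 in both comparisons. That is 4 of 9, where 10.8% of genes did against WT and 8.34% against p53-null, but 0 members passed in limma, nor did any other gene (0% in both). Between WT and p53-null responses 0 members passed in limma (0% of genes), and 0 had an unadjusted p under 0.05 (1.52% of genes).

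For Slc1a4, Slc7a5 and Slc43a3, levels differed most between the Δ122p53 arrays and those of the other genotypes. The WT control signal of Slc38a5 (9.21) lay nearer to the Δ122p53 control (10.49) than to the p53-null controls (6.17 and 7.31). The only group with 2 arrays was the p53-null control. The p-values here and below thus hold no measured spread between pools of WT or Δ122p53 mice. Genotype and pool cannot be told apart. On the untreated arrays Slc1a4 rose at least 7.24-fold against WT (adjusted p = 0.0185) and at least 7.19-fold against p53-null (adjusted p = 0.00965). Slc7a5 rose by 2.51 ± 0.39 (adjusted p = 0.0386) and by 3.13 ± 0.34 (adjusted p = 0.0138). Against p53-null, Slc38a5 rose by 3.75 ± 0.52 (adjusted p = 0.0256) and Slc43a3 by 2.73 ± 0.43 (adjusted p = 0.0325), while against WT they were at 1.27 ± 0.61 (adjusted p = 0.251) and 2.64 ± 0.49 (adjusted p = 0.0552). That is 2 of the 9 against WT, where 3.12% of genes passed, and 4 against p53-null, where 4.13% did. Cyclic loess, the authors' value table and the absence of a detection filter each left 0 members past the threshold in both.

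On the amsacrine arrays Slc38a5 set Δ122p53 apart most. It rose at least 38.1-fold against WT (adjusted p = 0.0119) and at least 40.8-fold against p53-null (adjusted p = 0.00951), and Slc43a3 rose by 3.01 ± 0.49 against WT (adjusted p = 0.0344). Slc7a5, by contrast, was 0.66 ± 0.39 and 0.93 ± 0.39 above WT and p53-null (adjusted p = 0.393 and 0.345), and Slc1a4 was 1.61 ± 0.39 and 0.96 ± 0.39 above them (adjusted p = 0.0858 and 0.326). In these comparisons 2 members passed against WT (4.09% of genes) and 1 against p53-null (3.07%). Over control and amsacrine arrays together, 3 members passed against WT (14.3% of genes) and 4 against p53-null (8.45%). Slc1a5 was the 1 member to pass only there, higher than in WT by 1.35 ± 0.35 (adjusted p = 0.0481). Medians over all genes in the Δ122p53 against WT comparisons were -0.10 to -0.17. Between p53-null and WT 0 members passed in limma on control or on amsacrine arrays (0% of genes in both). At an unadjusted limma p under 0.05 was 1 member on control arrays (6.04% of genes), Slc38a5 with p53-null minus WT at -2.47 ± 0.52 (adjusted p = 0.725), and 0 members on amsacrine arrays (4.29% of genes).

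Of the 5 genes most like Slc38a5, 2 were on the list of erythroid markers, Aqp1 and Klf1. By Pearson correlation of log2 signals over the 8 arrays, the 5 were Mgst3 (0.985), the water channel gene Aqp1 (0.982), the spindle gene Spag5 (0.981), the erythroid transcription factor gene Klf1 (0.981) and the biliverdin reductase gene Blvrb (0.978). These points share 3 genotypes and 1 normalization, and the Δ122p53 arrays lie at 1 end. Slc38a5 was detected on 5 of the 8 arrays, so its correlations take in signals at background. Of 18 erythroid markers listed, 14 were measured. On the WT control 9 of them were detected and on the WT amsacrine array 6. On the p53-null arrays 7 and 8 were detected in the controls, 6 after amsacrine and 8 after irradiation, and all 14 were on both Δ122p53 arrays. Ermap, Gata1, Hemgn, Rhag and Trim10 entered the list's measured genes through the Δ122p53 arrays alone, and were not above background on any WT or p53-null array. The list's median was 10.33 and 10.44 on the Δ122p53 arrays, 7.15 on the WT control, 6.03 and 6.53 on the p53-null controls and 6.24 on the irradiated array. On the WT and p53-null amsacrine arrays it lay below the lowest detected signal, so no order is read from it there. The summed signal of the list, which globin genes dominate, was 10438 to 38879 in the WT and p53-null arrays and 93642 and 85610 in the Δ122p53 control and amsacrine arrays. It was higher on the WT amsacrine array (38879) than on the WT control (16554), the opposite of Slc38a5. Aqp1 was at least 10.9-fold lower after amsacrine in WT cells, where it was then not above background, and at -0.06 ± 0.54 in Δ122p53 cells, and Klf1 was at least 3.53-fold lower and at 0.99 ± 0.62. After irradiation of p53-null cells, where Slc38a5 was not above background, Aqp1 was detected at 7.04 against a control mean of 7.24. Of 16 mitotic genes listed 9 were measured, and 9 were detected on the WT control and 5 after amsacrine. Their median was 7.53 and 6.11 there and 9.06 and 9.65 in Δ122p53 control and amsacrine, whereas their summed signal was 4361 and 5021 in WT and 10453 and 13904 in Δ122p53. In p53-null cells that sum was 2870 and 3785 in the controls and 4760 after amsacrine, with 9, 9 and 5 of the 9 detected. Cenpa was the only one of the 9 that was higher after amsacrine in WT (0.76 ± 0.42) and p53-null cells (1.11 ± 0.36). All the others were lower in both, in WT from -1.06 ± 0.38 (Top2a) to -2.51 ± 0.39 (Birc5). The rise of the mitotic sum in WT thus came from Cenpa alone. For both lists, then, the sum and the number detected ran in opposite directions in amsacrine-treated WT cells. The part of red cell precursors or dividing cells in the Slc38a5 values was not tested.

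**Figure D3:**
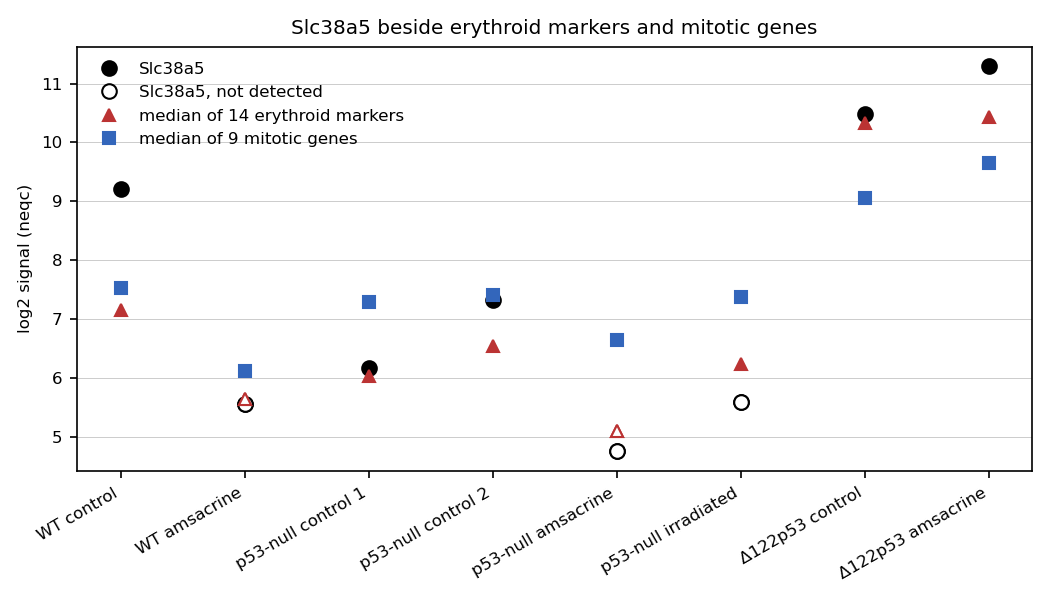
Log2 signal of Slc38a5 (black; open where not detected), the median of 14 erythroid markers (red) and the median of 9 mitotic genes (blue) on the 8 arrays. Open triangles are medians below the lowest detected signal of the array, as on both amsacrine arrays of WT and p53-null cells; all 3 series are highest on the Δ122p53 arrays.

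Of the 5 genes most like Slc1a4, 1 was on the list of Atf4 response genes, Trib3. Over the 8 arrays the 5 were the alanyl-tRNA synthetase gene Aars (Pearson r = 0.991), the zinc importer gene Slc39a4 (0.988), the pseudokinase gene Trib3 (0.986), Tg (0.971) and Spdl1 (0.971). Slc1a4 was detected on 5 of the 8 arrays, Trib3 on 6 and Tg on 5, so their correlations take in signals at background. The genes most like Slc43a3 were the ribosome rescue gene Pelo (0.992), Clic4 (0.985), Phf10 (0.978), the helicase gene Blm (0.972) and Pcgf5 (0.966). Here too the points share 3 genotypes and 1 normalization. Of 18 measured Atf4 response genes, 7 were at least 2-fold higher and 3 at least 2-fold lower in WT, 10 and 2 in p53-null, 3 and 0 in Δ122p53, and 7 and 1 after irradiation, to be read against the shares of all genes given above. Trib3 rose at least 10.6-fold in p53-null cells (adjusted p = 0.034) and was the 1 gene of the list to pass in any of these 4 responses. It was higher by 2.99 ± 0.38 in WT and 0.66 ± 0.38 in Δ122p53, and at least 6.06-fold higher after irradiation. Chac1, a glutathione-degrading enzyme, was at 1.83 ± 0.55, 3.58 ± 0.48, 0.60 ± 0.55 and 2.16 ± 0.48 in WT, p53-null, Δ122p53 and irradiated cells, with 1 of the 2 p53-null controls detected. On the other side Ppp1r15a, which ends the stress signal, was at -1.65 ± 1.12 in WT and -1.31 ± 0.97 in p53-null cells after amsacrine, with wide errors.

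Slc7a11 is also a known target of Nrf2, the antioxidant transcription factor encoded by Nfe2l2. Of 12 measured Nrf2 target genes, 1 was at least 2-fold higher and 1 lower in WT (9.7% and 12.1% of all genes), 6 and 0 in p53-null (6.08% and 8.41%), 0 and 0 in Δ122p53 (3.38% and 3.93%), and 5 and 0 after irradiation (5.49% and 5.46%). In limma 0 of them passed in these 4 responses. Srxn1, which repairs oxidised peroxiredoxins, was not above background on the WT and p53-null controls. It was at least 4.0-fold higher after amsacrine in WT, at least 4.12-fold in p53-null cells and at least 3.60-fold after irradiation, and at -0.00384 ± 0.39 in Δ122p53. Of 12 measured regulators of growth and nutrient sensing, 3 were at least 2-fold higher and 1 lower in WT, 4 and 0 in p53-null, 0 and 0 in Δ122p53 and 1 and 1 after irradiation, again with 0 passing in limma. Among them Nfe2l2 was at least 2.92-fold higher in WT cells after amsacrine and at -0.39 ± 0.41 in Δ122p53. Rragd, a GTPase that links amino acids to mTORC1, was at least 1.99-fold higher in WT and at least 1.89-fold in p53-null cells after amsacrine, and at -0.17 ± 0.38 in Δ122p53.

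A wider list of amino acid transporter genes was read beside the 9. Of 49 listed, 16 were detected on at least 1 array. Their median difference was 0.26 in WT, 0.18 in p53-null, -0.14 in Δ122p53 and 0.08 after irradiation, and 0 passed in limma in any of these 4. At least 2-fold higher were 3, 4, 1 and 1 of them, where 9.7%, 6.08%, 3.38% and 5.49% of all genes were, and at least 2-fold lower 3, 1, 1 and 0, where 12.1%, 8.41%, 3.93% and 5.46% were. Of the 3 that were higher in WT, Slc7a8 was not above background on either array. In the amsacrine effect shared by genotypes 2 of the 16 passed (2.11% of all genes). Slc7a3, another arginine importer, rose by 1.56 ± 0.20 (adjusted p = 0.0208), and Slc15a4, the histidine and peptide carrier of the lysosome, fell by 1.34 ± 0.18 (adjusted p = 0.0235). Slc7a3 was not above background on the WT control (4.86) or p53-null controls (4.73 and 4.85) and stood at 6.35 and 6.11 after amsacrine there. On the Δ122p53 arrays it was 6.35 in the control and 8.31 after amsacrine, so the size of its shared effect is not exact. Slc15a4 was detected on all arrays and lower after amsacrine in each genotype, by -1.59 ± 0.38 in WT, -1.28 ± 0.33 in p53-null and -1.18 ± 0.38 in Δ122p53.

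Slc6a9, the glycine transporter that red cell precursors use for haem synthesis, was not detected on the p53-null controls and was at least 4.56-fold higher after amsacrine (2.96 ± 0.38, adjusted p = 0.0678) and at least 2.33-fold higher after irradiation. It was highest on the Δ122p53 arrays (10.63 and 11.16), where it rose by 3.39 ± 0.44 against the WT control (adjusted p = 0.0305) and by 3.07 ± 0.44 against WT amsacrine (adjusted p = 0.025). Unlike Slc38a5, it was higher, not lower, on the amsacrine arrays of WT (8.09 against 7.25) and p53-null cells. Slc38a9, the lysosomal arginine sensor, was at 2.25 ± 0.64 in WT and 1.41 ± 0.55 in p53-null cells after amsacrine. It was at -0.15 ± 0.64 in Δ122p53 cells and at -0.74 ± 0.55 after irradiation. Its WT control signal (5.84) lay near the lowest detected signal of that array (5.80). In p53-null cells it was 7.55 and 6.32 in the controls, 8.35 after amsacrine and 6.20 after irradiation, so the sizes there depend on the control. Slc66a1, which exports arginine and lysine from the lysosome, was at least 2.67-fold lower in WT cells after amsacrine.

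**Figure D4:**
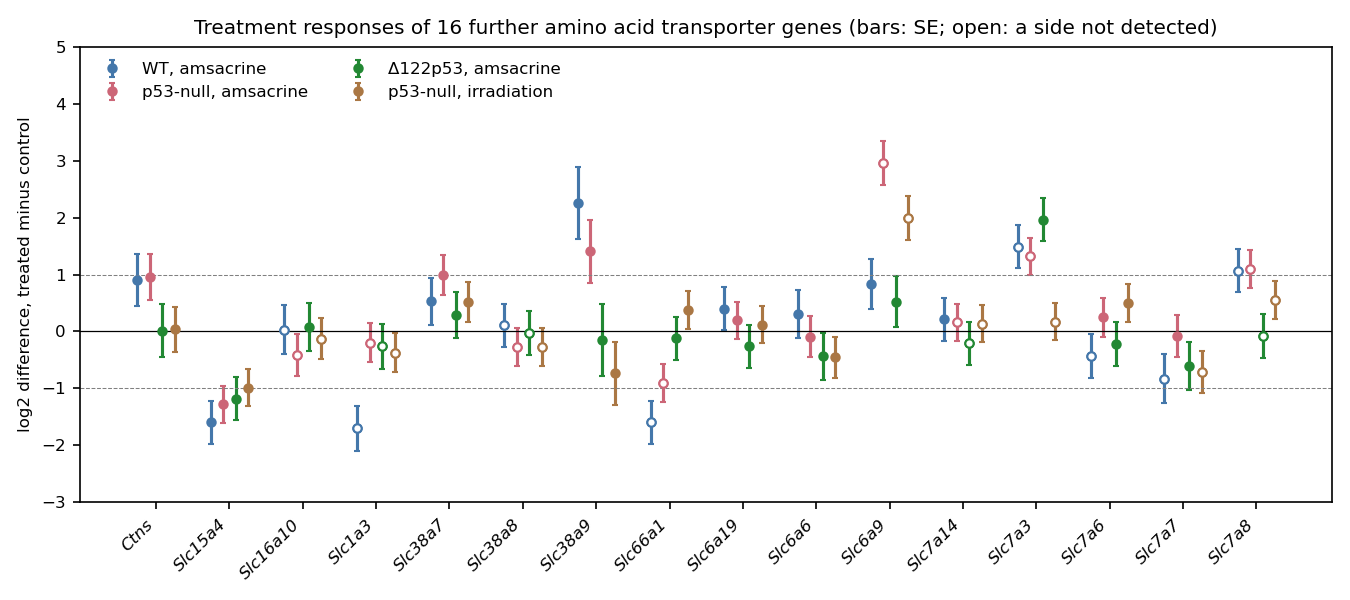
Log2 difference of treated minus control (points) with SE (bars) for 16 further amino acid transporter genes in 4 responses; dashed lines mark 2-fold, and open points have a side not detected on any array. Slc15a4 lies below 0 in all 4 responses, and Slc7a3 lies between 1.32 and 1.96 for amsacrine in the 3 genotypes.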

How the data were processed

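The authors deposited probe signal intensities with detection p-values for 8 arrays, named non-normalized per the file headers and all above 0. They also deposited normalized values, treated here as log2 values and used only as an alternative. Per the submitters' processing notes lumi was used, with no version given; the sources used here do not say whether the table was variance-stabilised. Its columns share 1 distribution (sorted values differ by at most 0.000516). In R 4.3.3 with limma 3.58.1, limma's neqc took the background from the detection p-values, added an offset of 16, and gave quantile-normalized log2 values. Probes detected (p under 0.01) on at least 1 array and naming 1 gene were kept, 1 per gene by highest mean. Symbols were updated through Entrez identifiers (20968 of 20984 matched). Limma models had a mean for each of 7 groups (1 residual degree of freedom, prior 4.78) or genotype plus amsacrine on 7 arrays (3 residual, prior 3.85). The number of arrays limits the precision. The lowest detected signal per array set the bounds. The fits were run on simulated data whose noise was drawn from the fitted model, with the same spread on all arrays. That run cannot show whether a lone array varies like the p53-null control pair. All 9 members, and the gene lists, were chosen with earlier results of these data known. Named genes were the members, the largest differences of the lists, and the 5 genes most like Slc38a5, Slc1a4 and Slc43a3. Other backgrounds, normalizations, filters and left-out arrays were tried. No probe named Trp53, so the genotype labels were not checked on it. Gene coordinates of the annotation and probe sequences were not used here.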

Additional observations from a re-analysis of the deposited data

Results flagged for a closer look

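The amsacrine response differed between Δ122p53 and the other genotypes at an unadjusted limma p under 0.05 for 4 of the 9 genes, where 10.8% of all genes did so against WT and 8.34% against p53-null. None passed after adjustment over all genes. For Δ122p53 minus WT the differences were -2.22 for Slc1a4 (adjusted p = 0.332), 4.48 for Slc38a5 (0.332), -2.26 for Slc7a11 (0.332) and -1.86 for Slc7a5 (0.382). For Δ122p53 minus p53-null they were -3.01 for Slc1a4 (adjusted p = 0.392), 2.80 for Slc38a5 (0.49), -2.02 for Slc7a11 (0.482) and -2.20 for Slc7a5 (0.476). Slc1a4 and Slc7a5 already had high signals on the Δ122p53 control (8.66 and 12.165), and Slc7a11 was not above background on any of the arrays compared, so its differences have no measured level behind them. For Slc1a4 and Slc38a5 the sizes are not exact, as each was below background on some arrays.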

How the results depend on the processing

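No separate paired analysis was run. The labels match control and treated arrays only by genotype, which the model of genotype and amsacrine takes in. No slide is named in the headers, so a slide block was not run. With 1 array in most groups the precision rests on the p53-null control pair; signals near background (Slc3a2, Slc7a11, Slc7a1) give no usable fold. The cause of the changes below was not tested. Members past the threshold in the p53-null amsacrine response went from 1 to 0 with either other background setting, cyclic loess, the authors' table, no detection filter, or only genes detected on all arrays (Slc1a4 is then left out). In the WT response they went from 0 to 2 under median scaling (Slc1a4 and Slc38a5), which moved the median of all genes there to -0.24. For the shared amsacrine effect they went from 2 to 1 with either background, cyclic loess, median scaling or genes detected on all arrays, to 0 with the authors' table or no filter, to 0 without either p53-null control and to 5 without the Δ122p53 arrays. On control arrays Δ122p53 minus WT went from 2 to 0 and Δ122p53 minus p53-null from 4 to 0 with cyclic loess, the authors' table or no filter, the latter to 2 with genes detected on all arrays. On amsacrine arrays Δ122p53 minus WT went from 2 to 0 and Δ122p53 minus p53-null from 1 to 0 under the same 3 settings, and to 1 and 0 with genes detected on all arrays. Over both conditions Δ122p53 minus WT went from 3 to 1 with no filter and to 1 to 2 when a p53-null control was left out. Over both conditions Δ122p53 minus p53-null went from 4 to 1 with no filter, to 2 with genes detected on all arrays and to 1 to 2 when a p53-null control was left out. Members at least 2-fold higher in WT went from 5 to 3 with the authors' table or genes detected on all arrays, in p53-null from 4 to 2 with the latter, in Δ122p53 from 2 to 1 with either background, both other normalizations, the authors' table or genes detected on all arrays, and after irradiation from 4 to 2 with the last 2 settings. Members at least 2-fold lower went from 1 to 0 with genes detected on all arrays in WT, and with that or the authors' table in p53-null and the shared effect. After irradiation they went from 2 to 1 with either background, median scaling, the authors' table, genes detected on all arrays or without p53-null control 1, and stayed at 2 without control 2. The count hides a change of genes. In the main values, irradiated minus control 1 was -1.45 for Slc38a2, -1.24 for Slc1a5 and -0.58 for Slc38a5, which is short of 2-fold. Over all genes, calls ran from 0 to 161 in WT (0 in the main setting), 0 to 68 in p53-null (10) and 1 to 1265 in the shared effect (157). Δ122p53 calls on control arrays ran from 0 to 469 against WT (233). No member that passed changed direction under any alternative run.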
